A study of Mus musculus with 6 samples.

Results

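The 10 genes described here encode proteins that bind RNA carrying N6-methyladenosine (m6A) or RNA whose fold is opened by it, and are known as m6A readers. They were taken by name and Ensembl identifier: Ythdf1 (ENSMUSG00000038848), Ythdf2 (ENSMUSG00000040025) and Ythdf3 (ENSMUSG00000047213), Ythdc1 (ENSMUSG00000035851) and Ythdc2 (ENSMUSG00000034653), Igf2bp1 (ENSMUSG00000013415), Igf2bp2 (ENSMUSG00000033581) and Igf2bp3 (ENSMUSG00000029814), and the hnRNP genes Hnrnpa2b1 (ENSMUSG00000004980) and Hnrnpc (ENSMUSG00000060373). All 10 were found among the 48505 genes of the deposited tables, and they held 2873 of the 5193362 windows into which the genes had been divided. The libraries came from anti-m6A immunoprecipitation (IP) of RNA from fetal hearts of wild type FVB/NJ mice. The 3 nano-TiO2 libraries followed inhalation of a titanium dioxide nanoparticle aerosol by the pregnant dams, at a target of 12 mg/m3, and the 3 sham libraries followed filtered room air. Exposure took 360 minutes on each of 6 days within a span of 8 days from gestational day 5, and hearts were collected on day 15. The study used 14 dams, aged 10 weeks, and each library came from a pool of hearts of both sexes. Neither the number of hearts or litters in a pool is labelled, nor whether the pools of a group came from separate dams. The p-values here thus measure no spread beyond that within and between these libraries.

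The m6A mark is placed on adenosines by a methyltransferase complex and is removed by demethylases, and readers are the proteins that act on the marked RNA. YTHDF1, YTHDF2 and YTHDF3 are cytoplasmic proteins with a YTH domain that holds the methylated base, and YTHDF2 is best known for speeding the decay of bound mRNA. YTHDC1 reads the mark in the nucleus, and YTHDC2 is an RNA helicase known for its part in meiosis. The IGF2BP proteins stabilise mRNA and are typical of fetal tissues. HNRNPA2B1 and HNRNPC are abundant nuclear proteins that reach sites exposed by the mark, and HNRNPC binds runs of uridine. What was measured here is neither the amount nor the activity of these proteins, but how much of each gene's own RNA was recovered by the anti-m6A antibody.

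The IP libraries held 22151447 to 31523675 reads in the sham group and 20205024 to 28251706 in the nano-TiO2 group. Between 997523 and 1145132 windows held a read in a sham library, and between 1271555 and 1484331 in a nano-TiO2 library, so the reads of the exposed libraries were spread over more windows at no greater depth. An IP level is given as the sum of the normalized reads over a gene's windows. It depends on how much of the gene's RNA was present as well as on how much of that RNA the antibody bound, and these cannot be told apart in it. Nor can a change in the number of cells of a type be told apart from a change in RNA per cell in whole hearts. The tables name genes by identifier only and no list pairing these identifiers with symbols was at hand, so markers of the heart and of other cell types could not be looked up.

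All 10 reader genes passed the filter on low values, a mean over the libraries of 10 normalized reads or more, which was set over both groups together. In the IP 7 of the 10 were higher in the nano-TiO2 libraries and 0 were lower, at an adjusted p under 0.05 in limma with Benjamini-Hochberg adjustment over the 18566 genes tested. Among all genes tested, 24% were higher and 12% lower by the same rule. The members' median log2 change was 0.96, against 0.13 for all genes tested. The 7 were Ythdf2, Ythdf3, Ythdc1, Ythdc2, Igf2bp2, Igf2bp3 and Hnrnpa2b1, and in each of them every nano-TiO2 library was above every sham library. Groups that did not overlap in this direction made up 30.9% of all genes tested. Ythdf1, Igf2bp1 and Hnrnpc did not pass, and their groups overlapped.

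**Figure D1:**
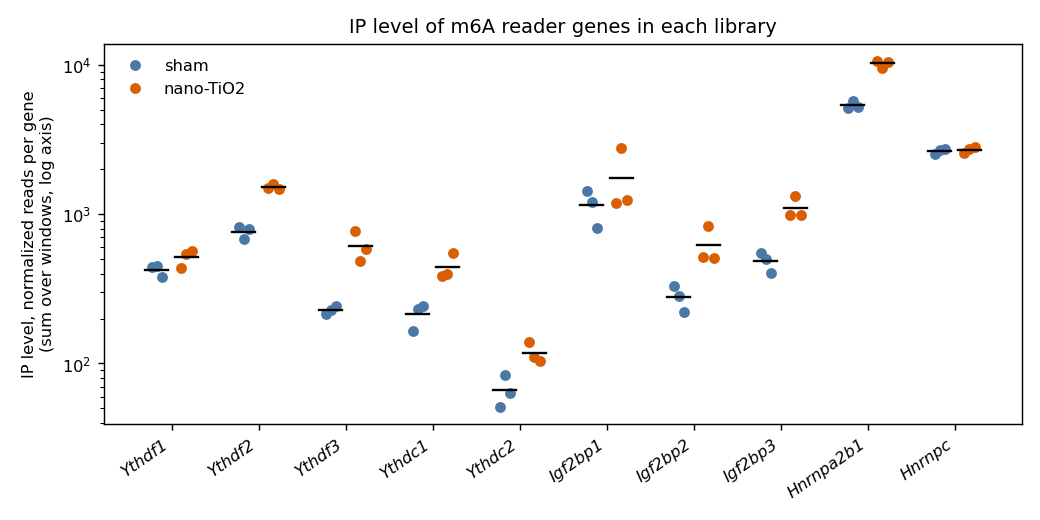
IP level of each of the 10 reader genes, in normalized reads summed over the gene's windows, on a log axis. Each point is 1 library, 3 sham and 3 nano-TiO2, and the bar is the mean of 3. Hnrnpa2b1 lay at 5139 to 5771 in the sham libraries and at 9601 to 10597 in the nano-TiO2 libraries, while the 2 groups of Hnrnpc overlapped between 2537 and 2838.

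Within the YTHDF family, Ythdf3 had the largest fold and Ythdf1 did not pass. The IP level of Ythdf3 was 216, 228 and 243 normalized reads in sham libraries 1, 2 and 3, and 772, 483 and 583 in nano-TiO2 libraries 1, 2 and 3. The lowest exposed library was above the highest sham library, and exposed library 1 stood highest. The fitted change was 2.62-fold, with a 95% confidence interval of 1.93 to 3.56 (log2 change 1.39 ± 0.19 SE, limma adjusted p = 0.0013). Ythdf2, the decay-promoting reader, gave 816, 687 and 793 in the sham libraries against 1492, 1585 and 1469 in the exposed libraries. The spread within each group was small beside the gap between them, and the change was 1.98-fold, interval 1.60 to 2.46 (limma adjusted p = 0.0013). Ythdf1, known for a role in translation, gave 443, 450.2 and 377 in the sham and 434, 545 and 570.2 in the exposed libraries. Exposed library 1 fell within the sham range, and the change of 1.21-fold had an interval from 0.935 to 1.58 (limma adjusted p = 0.22). The interval thus held both no change and a rise. With array weights limma called Ythdf1 too (log2 change 0.36, adjusted p = 0.042), which made 8 members called higher against 31.9% of all genes.

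The YTHDC genes had the lowest levels per window of the members. Ythdc1, the nuclear reader, gave 166, 230.0 and 245 normalized reads under sham and 387, 399.7 and 548 in the exposed libraries. The groups were apart, with exposed library 3 highest, and the change was 2.08-fold, interval 1.49 to 2.91 (limma adjusted p = 0.0056). Ythdc2 gave 51.3, 83.2 and 63.5 in the sham and 138, 110.1 and 105 in the exposed libraries. These values rested on only 47 to 133 recovered reads a library. The groups did not overlap, and the change was 1.79-fold, interval 1.23 to 2.62 (limma adjusted p = 0.025). This call was lost when sham replicate 1 (adjusted p = 0.078) or 3 (0.056) was left out, when nano-TiO2 replicate 1 (0.081) or 3 (0.052) was left out, and after quantile normalization (0.15).

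Igf2bp2 and Igf2bp3 both rose, and Igf2bp1, also of this mRNA-stabilising family, was scattered. Igf2bp2 gave 333, 284 and 220.3 normalized reads under sham and 513, 828 and 511 in the exposed libraries. Exposed library 2 was highest, the groups were apart, and the change was 2.18-fold, interval 1.50 to 3.17 (limma adjusted p = 0.0068). Igf2bp3 gave 553, 501 and 401 in the sham and 984, 1319 and 995 in the exposed libraries. It had the same high library and a change of 2.26-fold, interval 1.70 to 3.02 (limma adjusted p = 0.0020). Igf2bp1 gave 1424, 1210.3 and 809.6 in the sham and 1185, 2792 and 1256 in the exposed libraries. Exposed library 2 stood far above the rest, and the other exposed libraries lay within the sham range. The fitted change of Igf2bp1 was 1.44-fold with an interval from 0.848 to 2.44 (limma adjusted p = 0.26), and its sign turned when the trend of level with gene length was removed within each library (log2 change -0.24).

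The hnRNP genes, which had the highest levels per window of the members, differed from each other. Hnrnpa2b1 gave 5139, 5771 and 5214 normalized reads under sham and 10597, 9601 and 10558 in the exposed libraries. It rested on 3858 to 13110 recovered reads a library, the most of any member, and its change of 1.91-fold had an interval of 1.56 to 2.33 (limma adjusted p = 0.0012). Hnrnpc gave 2537, 2706 and 2723 in the sham and 2562, 2745 and 2838 in the exposed libraries. The lowest exposed library of Hnrnpc lay within the sham range and the other two just above it, and the fitted change was 1.02-fold, interval 0.842 to 1.24 (limma adjusted p = 0.87). Its sign was negative with edgeR, DESeq2, TMM scaling and removal of the length trend. The interval of Hnrnpc lay wholly below that of Hnrnpa2b1. Processed copies of hnRNP genes are common in mammalian genomes, and the sources used here do not state how reads matching several places were counted, so the levels of both genes may be split with such copies.

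The calls depended on how levels were scaled and on the length of the gene. Taking the trend of level with the number of windows out of each library left 2 of the 10 members called, Ythdf2 (log2 change 0.67, limma adjusted p = 0.014) and Ythdf3 (0.98, 0.016). The members' median change was then 0.26, and among all genes 11.2% were higher and 13.2% lower. The shift was small in the shortest member, Ythdf1 with 132 windows, whose change went from 0.28 to 0.13, and large in the longest, Ythdc1 with 546 windows, whose change went from 1.06 to 0.09. Scaling all libraries to equal totals moved the all-gene median from 0.13 to 0.61, and all 10 members were then called higher, as were 43.1% of all genes. Relative to that median, Hnrnpc (0.53) lay below the typical gene. All-gene calls split into 4450 higher and 2226 lower as deposited, 8005 and 169 with equal totals, 3821 and 3495 with DESeq2, 3081 and 2815 after quantile normalization, and 2084 and 2457 without the length trend. The number of windows holding a read moved with the groups as given above, and its part in these results was not tested.

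**Figure D2:**
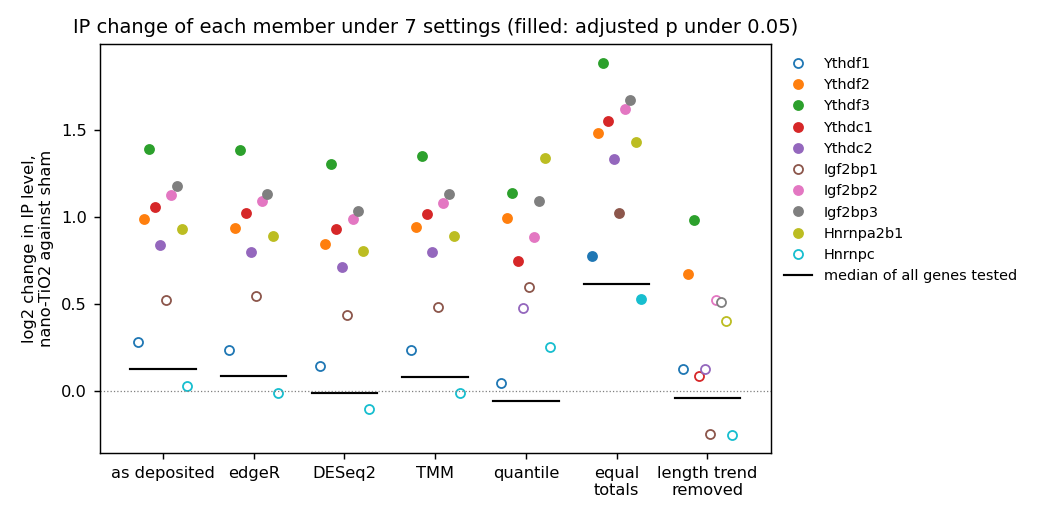
Log2 change in IP level, nano-TiO2 against sham, of each reader gene under 7 settings, with filled points for an adjusted p under 0.05. The black bar is the median of all genes tested. Ythdf2 and Ythdf3 were filled under each of the 7 settings, and Ythdf1, Igf2bp1 and Hnrnpc were filled with equal totals only, where the bar stood at 0.61.

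A second deposited table holds adjusted values. Dividing the normalized windows of a gene by 1 factor per library, with rounding, gave the adjusted ones. The sources used here do not say how that factor was obtained. On the adjusted values 0 of the 10 members passed in limma, as did 0% of the 19361 genes tested. An unadjusted p under 0.05 was reached by 3592 genes, or 18.6%, and by 3 members: Ythdf2, Igf2bp3 and Hnrnpa2b1. The members' median log2 change was 0.22, against 0.17 for all genes.

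Hnrnpa2b1 had adjusted scores of 6357, 7760.0 and 6263 in the sham and 7985, 9091 and 8599 in the exposed libraries. The groups were apart, by a gap smaller than the spread within either group, and the log2 change was 0.34 ± 0.10 SE (limma adjusted p = 0.18). Igf2bp3 had 687, 763 and 601 against 882, 897 and 818, also without overlap (log2 change 0.35 ± 0.12 SE, limma adjusted p = 0.21). Ythdf2 had 914, 1112 and 968 against 1154, 1355 and 1217 (0.32 ± 0.12 SE, limma adjusted p = 0.21). Igf2bp1 had 1371, 1451 and 1198 against 1465, 1480.0 and 1651, so the scatter of its IP level was largely absent here (0.20 ± 0.11 SE, limma adjusted p = 0.35). Those 4 members were higher in every exposed library, a pattern found in 19.4% of all genes tested.

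The groups of the other 6 members overlapped in the adjusted table. Ythdf3, with the largest IP change, had adjusted scores of 399, 441 and 306 in the sham and 475, 393 and 481 in the exposed libraries. Its interval ran from a log2 change of -0.12 to 0.61, and so reached well below the 1.39 of the IP. Igf2bp2 ranged from 356 to 441 against 434 to 540.0, and Ythdf1 from 405 to 508 against 452 to 575. Ythdc1 had 343, 288 and 354 against 248, 404 and 419, with the lowest and the highest library both exposed. Ythdc2 had 71, 135 and 94 against 117, 104 and 96. Hnrnpc had 2480.0, 2834 and 2826 against 2720.0, 2588 and 2694, and its interval of -0.22 to 0.18 was the narrowest of the members. Without sham replicate 2, limma called 3 members higher, Ythdf2, Igf2bp3 and Hnrnpa2b1, with adjusted p-values of 0.049, 0.048 and 0.028, as it did 8.32% of all genes. With array weights it called those 3 and Igf2bp1, and 22.5% of all genes. With TMM scaling the median of all genes moved from 0.17 to 0.01 and that of the members from 0.22 to 0.06.

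The dividing factor itself differed between the groups for most members. Rounding left it a relative width of at most 0.2 in each library for 9 members, and Ythdc2, whose windows were too low, was left out of this fit. The value fitted was the normalized gene sum over the adjusted gene sum. Its log2 change is therefore close to the IP change less the adjusted change, and is not a separate observation. The factor was higher in the nano-TiO2 libraries for 6 of 9 members and lower for 0 in limma, against 13.3% higher and 19.1% lower among the 13812 genes fitted. For Ythdf3 it was 0.541, 0.517 and 0.795 in the sham and 1.63, 1.23 and 1.21 in the exposed libraries. These groups were far apart, and the log2 change of 1.15 ± 0.27 SE held most of the 1.39 seen in the IP (limma adjusted p = 0.025). Ythdc1 had factors of 0.483, 0.799 and 0.691 against 1.56, 0.989 and 1.31 (0.97 ± 0.29 SE, limma adjusted p = 0.033). Igf2bp2, Igf2bp3, Ythdf2 and Hnrnpa2b1 followed, with log2 changes of 0.86, 0.83, 0.67 and 0.59 and adjusted p-values of 0.032, 0.025, 0.029 and 0.028. In Igf2bp1 the factor was 1.89 in exposed library 2 against 0.676 to 1.04 in the other libraries, the same library that stood out in its IP level. Hnrnpc had factors of 0.942 to 1.06 in all 6 libraries, close to 1 in both groups.

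The calls on the factor rested on single libraries, while the log2 changes of the 6 called members stayed between 0.51 and 1.35 with any 1 library left out. With nano-TiO2 replicate 1 or 3 left out, 0 members and 0 of all genes were called in limma. An unadjusted p under 0.05 was kept by 6 members in both fits, and was reached by 4985 and 5292 of the 13812 genes. Without sham replicate 2, 1 member was called higher, as were 665 of the 13812 genes. The factor's share of the IP change, as a ratio of log2 changes, was between 63.7% in Hnrnpa2b1 and 92.0% in Ythdc1 over the 6 members called.

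**Figure D3:**
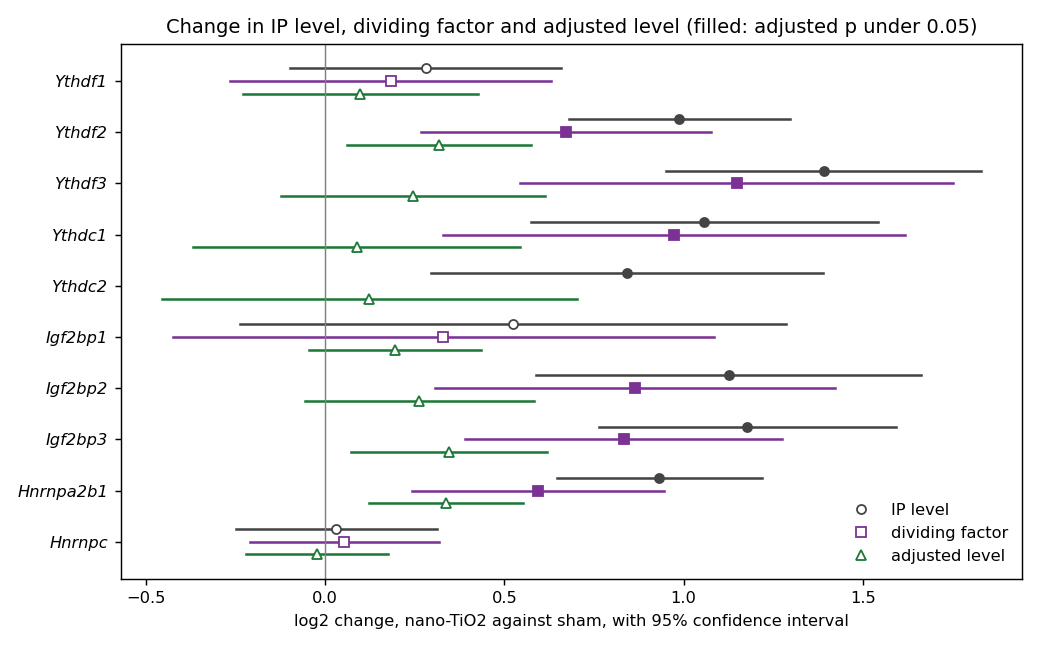
Log2 change, nano-TiO2 against sham, in IP level, in the factor that divides it and in the adjusted level, with 95% confidence intervals from limma over 3 libraries a group. Filled symbols passed an adjusted p under 0.05: 7 members for the IP level, 6 of 9 for the factor (Ythdc2 has no point) and 0 for the adjusted level.

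Where along each gene the reads lay was read from windows mostly 25 nucleotides apart, numbered from the start of each gene's list. A window's start is given as listed and the direction of the list relative to the transcript was not established. Each member had its reads in a limited set of windows. In Hnrnpa2b1 24 of 263 windows (9.13%) held 50% of the normalized reads, and in Ythdc1 34 of 546 did (6.23%), while Ythdf3 was the most even, with 59 of 214 (27.6%). The highest window of Hnrnpa2b1 started at 1535, with a mean of 203 ± 22.0 in the sham libraries and 338 ± 47.6 in the exposed libraries (SD, n = 3). In Hnrnpc it started at 1848, with 80.3 ± 11.9 and 55.6 ± 10.8. In Ythdf2 the highest window started at 1423, with 15.5 ± 3.74 and 28.1 ± 5.86. The mean profiles of the 2 groups correlated over windows with Pearson r of 0.99 in Hnrnpa2b1, 0.98 in Hnrnpc and 0.89 in Ythdf2, and with 0.65 in Ythdf3 and 0.36 in Ythdc2, whose windows hold few reads. These correlations are descriptions over windows of one gene, which are not independent.

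The same filter applied to single windows left 228, in 6 members. Hnrnpa2b1 had 83 of them, Hnrnpc 67, Ythdf2 48, Igf2bp1 17, Igf2bp3 7 and Ythdf1 6, and the other 4 members had none. In limma 79 of the 228 windows were higher in the nano-TiO2 libraries and 0 lower, against 3.88% higher and 7.32% lower among the 250317 windows tested. Windows of a gene share its RNA, so these are not 79 separate observations. In 58 of the 228 windows the sham mean was under 10, so they passed the filter through the exposed libraries alone and had to be higher there, and 11 of the 79 were among them. In 3 windows, all in Igf2bp1, the exposed mean was under 10. Of the 79, Hnrnpa2b1 held 68, Ythdf2 9, Igf2bp3 1 and Hnrnpc 1. The count fell to 47 without sham replicate 1, 48 without exposed library 1 and 44 without exposed library 3. Over all 250317 windows the count called higher fell too, from 9718 to 4780, 3658 and 3250 in the same fits. Of the adjusted values, 0 of 224 member windows passed, against 0.00316% of all windows tested, and 42 had an unadjusted p under 0.05, against 9.71%.

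In Hnrnpa2b1 the called windows lay in many stretches of the gene. The log2 change was above 0 in all 83 of its 263 windows that were tested and ran from 0.44 to 1.70, with a median of 0.93. Over all windows tested, 41.0% had a change above 0. Of the 83, 5 passed the filter through the exposed libraries alone, and of the 68 called, 1 did. With windows down to a mean of 1, 128 of 133 had a change above 0, against 62.0% of all windows. The called windows formed 13 runs, the longest from 1485 to 1835 (15 windows), from 3560 to 3835 (12 windows) and from 3885 to 4110 (10 windows). Of the tested windows, 82 fell into 7 blocks of at least 3 neighbours and 1 lay outside them. The tallest block, from 1485 to 1960, summed to 2319, 2652 and 2135 normalized reads in the sham and 4265, 3514 and 4623 in the exposed libraries. The block from 3560 to 4110 summed to 1251, 1229 and 1364 against 2826, 2645 and 2438. Ratios of group means ran from 1.75 to 2.16 over the 7 blocks, and the groups were apart in each of them. The share of such blocks in other genes was not taken.

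Ythdf2 had fewer reads per window. Of its 48 tested windows, 31 had a sham mean under 10 and so passed the filter through the exposed libraries alone, which fixed their direction. The called windows were 9 single ones, and 8 of them were among the 31. With windows down to a mean of 1, 110 of 114 had a log2 change above 0, against 62.0% of all windows. That filter too was set over both groups, so windows could pass it through the exposed libraries alone. The called windows included those starting at 2798 (log2 change 2.43), 3748 (1.89) and 2423 (1.81). Blocks of at least 3 neighbours, here with gaps of 1 window below the filter, numbered 5 and held 44 of the tested windows. Their ratios ran from 1.67 to 2.77 without overlap between the groups, the highest being for the block from 2748 to 2848, where the sham libraries summed to 19.7 to 31.5 normalized reads. The blocks were built from windows that passed the same filter, so their direction was in part fixed as well. The share of such blocks in other genes was not taken, so these ratios are not read as a result about Ythdf2. In Igf2bp3 the called window, which also passed the filter through the exposed libraries alone, started at 2860, with 5.40, 7.67 and 5.41 normalized reads in the sham and 17.9, 22.3 and 16.9 in the exposed libraries. In Igf2bp1 12 of 17 windows and in Ythdf1 5 of 6 had a change above 0, against 41.0% of all windows tested. In both genes 0 windows were called, with 0 at an unadjusted p under 0.05. Hnrnpc had 36 of 67 windows above 0, with a median log2 change of 0.03, and its 2 blocks, with 60 of those windows, had ratios of 0.965 and 1.01. Its groups did not overlap in 7 of the 67 windows, of which 3 were higher and 4 lower in the exposed libraries. The share of such windows over all windows tested is not given here, so this count is not read as a result about Hnrnpc.

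**Figure D4:**
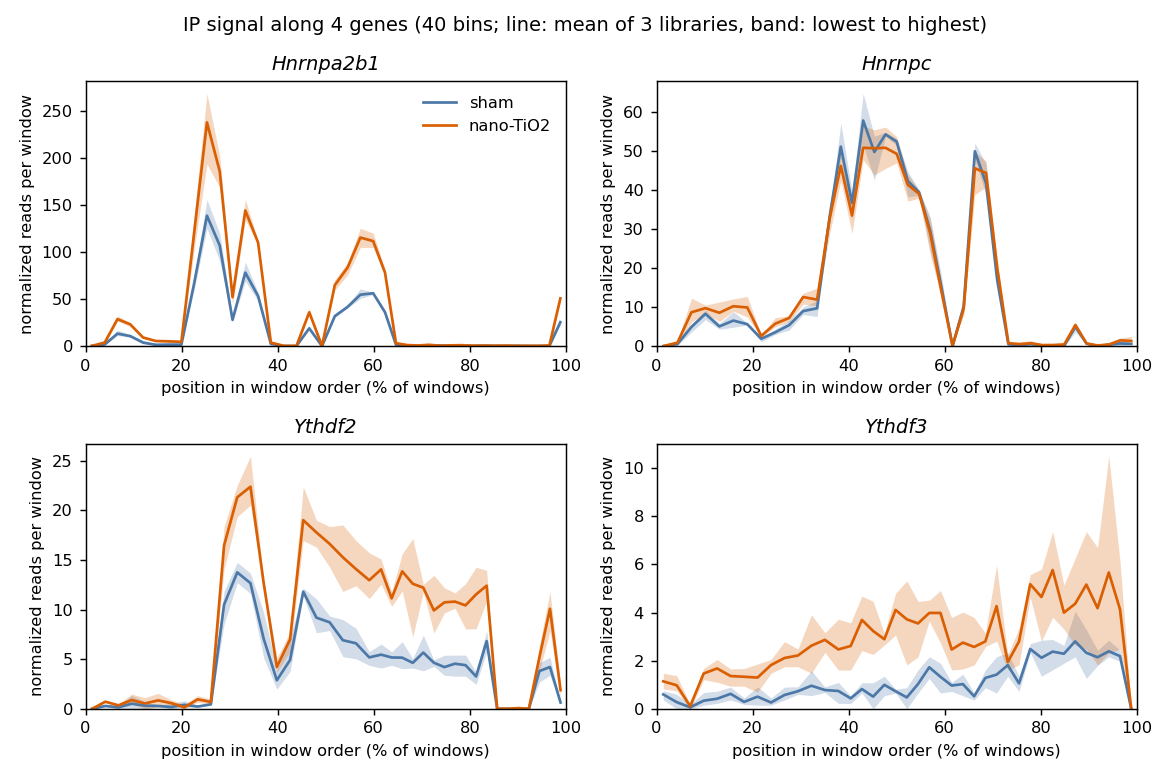
Mean normalized reads per window along Hnrnpa2b1, Hnrnpc, Ythdf2 and Ythdf3, in 40 bins of the gene's windows in listed order, with the axis as a percentage of windows. Lines are means of 3 libraries and bands run from the lowest to the highest library. The exposed line of Hnrnpa2b1 kept the shape of the sham line (r of 0.99 over windows) at 1.75 to 2.16 times its height over 7 blocks, while the lines of Hnrnpc lay on each other in its main blocks (ratios 0.965 and 1.01).

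The window of Hnrnpc starting at 548 was the member window called in limma's diffSplice test, which asks whether a window moved otherwise than the rest of its gene. It held 4.50, 6.57 and 2.70 normalized reads in the sham libraries, from 5, 6 and 2 recovered reads. The exposed libraries had 20.1, 9.93 and 21.7 normalized reads, from 18, 12 and 27 recovered reads. The groups were apart, and the window was higher by a log2 of 1.66 relative to its gene (diffSplice adjusted p = 2.5e-06 over 249423 windows). That test pools the spread of a gene's tested windows, so its p does not measure the spread between libraries alone. In the limma fit of single windows the adjusted p of this window was 0.039. The window's sham mean of 4.59 was under the filter of 10 and its exposed mean was 17.3. It was thus tested through the exposed libraries alone, and neither p is free of that choice. The neighbouring windows starting at 523 and 573 did not share the rise: 523 had 14.4, 6.57 and 6.76 against 4.46, 9.10 and 12.1, and 573 ran from 7.67 to 10.8 against 8.28 to 15.3. Fragments of 250 to 350 nucleotides are longer than the spacing of the windows. Whether a read was counted in each window that its fragment covers matters for such a value, and the sources used here do not state it. In all, 1 of 228 member windows was called higher and 0 lower, against 0.0373% and 0.00922% of all windows, and 19 had an unadjusted p under 0.05, against 3.26%. The call was lost when windows down to a mean of 1 were tested (adjusted p = 0.18). Without sham replicate 3 a second window was called, in Ythdf2 at 2798, which held 2 to 3 recovered reads in the sham and 20 to 25 in the exposed libraries and passed the filter in the same way.

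Shares of reads by position showed smaller differences. For each member 3 shares were taken, in the first 25% of windows, in the last 25% and in the peak region, the 20 consecutive windows with the highest mean. Groups did not overlap in 7 of these 30 shares, in Ythdf3, Igf2bp1 and Hnrnpc, against 14.2% of the same shares over all genes tested with at least 20 windows. With 3 libraries against 3 an exact two-sided permutation test cannot go below p = 0.1, which each of the 7 reached, and the adjusted p was 0.43. In Ythdf3 the last 25% of windows held 45.4%, 51.4% and 46.1% of the reads in the sham and 39.4%, 28.4% and 40.5% in the exposed libraries, a mean of 47.7% ± 3.30 against 36.1% ± 6.68 (SD, n = 3). Its peak region, from 4401 to 4876, held 22.5% ± 1.78 against 15.5% ± 2.94. Hnrnpc held 7.41%, 6.15% and 6.30% in its first 25% of windows in the sham and 11.5%, 8.50% and 10.1% in the exposed libraries, while its peak region went from 39.2% ± 0.943 to 36.2% ± 0.933. In Igf2bp1 the first 25% held 31.7% ± 2.14 against 36.7% ± 1.45, and the peak region 14.02% to 16.4% against 11.3% to 13.98%. In Hnrnpa2b1 the peak region held 44.0% ± 2.68 against 40.2% ± 3.59, with overlap. The number of shares without overlap was 12 with sham replicate 3 left out and 15 with nano-TiO2 replicate 3 left out. Leaving out a library can only keep or raise this number, since groups that are apart stay apart.

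Reads of the exposed libraries also reached more windows of most members. Of the 214 windows of Ythdf3, 114, 112 and 106 held a read in the sham and 185, 186 and 181 in the exposed libraries. Of the 355 windows of Ythdc2, 38, 51 and 34 held a read against 86, 88 and 82. The same direction without overlap was found for Ythdf2, Ythdc1, Igf2bp3 and Hnrnpa2b1, and the groups overlapped for Ythdf1, Igf2bp1, Igf2bp2 and Hnrnpc. That makes 6 of 10 members, against 36.7% of all genes tested. These numbers move with the level of a gene and with the number of windows read in the library, and neither part was tested. In the members with at least 40 tested windows, a set chosen after the profiles were seen, the share of reads in low windows went from 1.99% ± 0.0555 to 2.84% ± 0.379 in Hnrnpa2b1 and from 6.89% ± 0.422 to 10.3% ± 0.917 in Hnrnpc (exact permutation p = 0.1, adjusted 0.15), and overlapped in Ythdf2. Such a rise without overlap was found in 28% of the 2484 genes with as many tested windows.

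Compared per window, which takes the length of the gene into account, the order of the members was nearly the same in both groups. In the sham libraries Hnrnpa2b1 had 20.4 ± 1.31 normalized reads per window and Hnrnpc 15.4 ± 0.600, followed by Ythdf2 with 4.21 ± 0.379 (SD, n = 3). Ythdf1 (3.21) and Igf2bp1 (2.97) overlapped, as did Ythdf3 (1.07) and Igf2bp2 (0.942), with Igf2bp3 (1.49) between these pairs. Ythdc1 (0.391) and Ythdc2 (0.186) were lowest. In the nano-TiO2 libraries Hnrnpa2b1 stood at 39.0 ± 2.15, Hnrnpc at 15.8 ± 0.816 and Ythdf2 at 8.33 ± 0.337. Igf2bp1, Ythdf1, Igf2bp3, Ythdf3 and Igf2bp2, at 4.51, 3.91, 3.37, 2.86 and 2.09, each overlapped the next. Ythdc1 (0.815) and Ythdc2 (0.332) were again lowest, without overlap.

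Ratios between members of a family were taken within each library, which removes any scaling of the library, and were added after the gene levels had been seen. Among 8 pairs, the groups did not overlap in 4, each at the smallest p the exact two-sided permutation test allows (p = 0.1, adjusted 0.2). Each of the 4 sets a member called in the IP against one not called. The share of other gene pairs without overlap was not taken, so the count is not read as a result about the families. Hnrnpc over Hnrnpa2b1 was 0.494, 0.469 and 0.522 in the sham and 0.242, 0.286 and 0.269 in the exposed libraries. Ythdf2 over Ythdf1 was 1.84, 1.53 and 2.10 against 3.44, 2.91 and 2.58. Ythdf3 over Ythdf1 was 0.488, 0.506 and 0.645 against 1.78, 0.888 and 1.02. Igf2bp2 over Igf2bp1 was 0.234, 0.234 and 0.272 against 0.433, 0.297 and 0.407. The ratio of Igf2bp3 to Igf2bp2 was 1.75 ± 0.0810 and 1.82 ± 0.197, with overlap. In the adjusted table, Hnrnpc over Hnrnpa2b1 was the 1 ratio without overlap, at 0.390, 0.365 and 0.451 against 0.341, 0.285 and 0.313 (exact permutation p = 0.1, adjusted 0.8). Without nano-TiO2 replicate 2, 7 of the 8 normalized ratios did not overlap, a count that cannot fall when a library is left out.

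**Figure D5:**
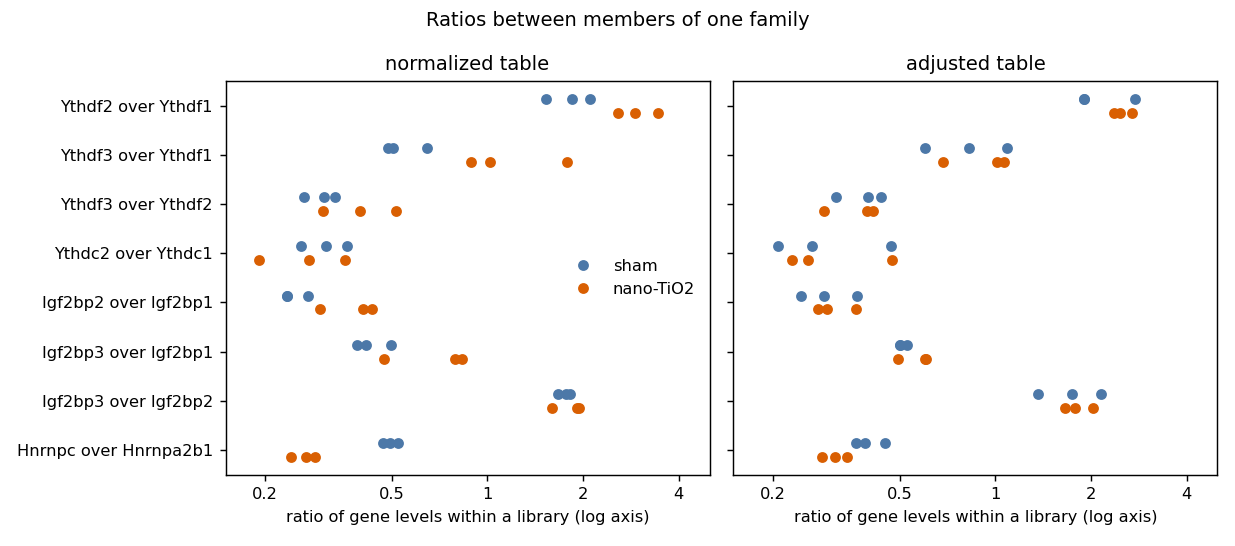
Ratio of gene levels within each library for 8 pairs of related reader genes, on a log axis, from the normalized table (left) and the adjusted table (right). Each point is 1 library. On the left 4 pairs have groups that do not overlap, among them Hnrnpc over Hnrnpa2b1, with 0.469 to 0.522 in the sham and 0.242 to 0.286 in the nano-TiO2 libraries, and on the right this pair alone.

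Across the 6 libraries, Pearson r between the log2 IP levels of the members that rose ran from 0.70 to 0.99. It was lowest for Ythdc1 with Igf2bp2 and highest for Igf2bp2 with Igf2bp3. Hnrnpa2b1 was most like Ythdf3 (r = 0.97) and was the closest member to Ythdf2 (0.95), Ythdc1 (0.93) and Ythdc2 (0.92). The closest member to Hnrnpc was Ythdc1, with r = 0.60. The 2 other genes whose IP level was most like the mean of the members were listed as ENSMUSG00000031209 and ENSMUSG00000034751, each with r above 0.999. These correlations are descriptions over 6 libraries in 2 groups, and any gene that differs between the groups shares that step.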

How the data were processed

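Sample titles gave the groups and replicate numbers. The submitters' processing notes name GRCm39, DESeq2 1.34.0, Salmon 1.5.2 and HISAT2 2.2.1, without their roles. The sources used here do not state how windows were counted or whether strand was used, so reads of overlapping genes cannot be told apart. The authors deposited a normalized table of IP signal per window. In 100% of its values, within 0.0001, it held whole reads times 1 step per library. The authors also deposited an adjusted table of whole-number scores. A further table was identical to the normalized one, and 0 columns of per-sample values were left unused. Labels describe input libraries, not used here.

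Values were summed per gene and tested as log2(value + 1) with limma 3.58.1 (trend, eBayes) where the mean was at least 10, two-sided, with Benjamini-Hochberg adjustment over all of them and a threshold of 0.05. A fold is on that scale. Window use was tested with limma's diffSplice, and shares and ratios with exact two-sided permutation tests in SciPy 1.17.1. The recovered reads were also tested with edgeR 4.0.16 and DESeq2 1.42.0. The depth was 47 to 13110 recovered reads per member and library. Named were all 10 members, with their highest windows, called windows as runs, the windows called by diffSplice, and the 2 most alike genes. The members and lists were chosen with earlier results of these data known. The RefSeq gene table at hand held 0 of the Ensembl identifiers, so further lists of m6A writers, erasers, binding proteins and cell type markers could not be used.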

Additional observations from a re-analysis of the deposited data

How the results depend on the processing

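In the IP, 7 members were called higher, as were 4450 of all 18566 genes. With the length trend removed it was 2 members and 2084 genes. With the median of tested windows it was 3 of 6 members and 733 of 8877 genes. With a library left out it was 6 to 7 members and 3175 to 4062 genes. With array weights it was 8 members (Ythdf1 added) and 5918 genes. Members called lower stayed at 0 in each table. On the adjusted values the 0 calls became 4 with array weights (Ythdf2, Igf2bp1, Igf2bp3 and Hnrnpa2b1), which gave nano-TiO2 replicate 3 a weight of 4.46, and 0 to 3 with a library left out. Of all 19361 genes, 4347 and 0 to 1611 were called higher in those fits. Same-numbered libraries deviated together with r of -0.37, 0.18 and 0.02, and differently numbered ones with r from -0.56 to 0.52. Deviations from a mean of 3 libraries are not independent, so these values cannot decide whether the numbers pair the samples. With the replicate number as a block, 7 members were called in the IP, 0 on the adjusted values, 0 in place of 6 for the factor, and 80 in place of 79 windows. The counts called higher over all genes or windows were then 4191, 0, 0 and 10370. Leaving out a library gave 0 to 5 members for the factor, 44 to 71 windows and 1 to 2 windows by use. Over all genes or windows the counts called higher were 0 to 1897, 3250 to 8493 and 57 to 143. Leaving out a library also gave 7 to 15 position shares and 4 to 7 ratios without overlap. Groups that are apart stay apart when a library is left out, so the counts of shares and ratios could only stay or rise. Window use gave 2 windows at a mean of at least 1 (Hnrnpa2b1 at 1435 and Hnrnpc at 1148) and 0 at 50, a filter that leaves the window at 548 out. These 2 held few recovered reads. Hnrnpa2b1 at 1435 had 0, 3 and 0 in the sham and 9, 14 and 10 in the exposed libraries. Hnrnpc at 1148 had 0, 4 and 0 against 8, 8 and 6. Of all 1023152 windows at a mean of at least 1, 515 were called higher and 133 lower. Position shares without overlap were 4 with a peak region of 10 windows and 4 with ends of 10%. Of the ratios of adjusted values, 1 did not overlap. For the IP and the factor, log2 changes turned sign only in members not called there. On the adjusted values, where 0 members were called, Ythdc1 and Ythdc2 turned too, although both were called in the IP. In the IP, Igf2bp1 turned with the length trend removed (-0.24). Hnrnpc turned there with edgeR (-0.012), DESeq2 (-0.10), TMM (-0.012), the length trend removed (-0.25) and the median of windows (-0.073), and ran from -0.0013 to 0.073 with a library left out. In the adjusted table, array weights turned Hnrnpc (0.040) and Ythdf1 (-0.025). TMM turned Ythdf1 (-0.062), Ythdc1 (-0.073) and Ythdc2 (-0.036), and quantile normalization turned the same 3 members (-0.067, -0.095 and -0.069). With a library left out, adjusted changes ran from -0.0092 to 0.16 in Ythdf1, from -0.047 to 0.33 in Ythdc1, from -0.096 to 0.36 in Ythdc2 and from -0.086 to 0.011 in Hnrnpc, and the factor of Igf2bp1 from -0.093 to 0.56. The causes were not tested. Of 406 values of single members under alternatives, 333 kept their direction and their side of the threshold. Depth limited Ythdc2 most.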
